A study of Mus musculus with 24 samples.

Results

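N6-methyladenosine (m6A) peaks were examined in 42 transcripts of fatty acid oxidation and of the peroxisome, a list fixed by gene name: 4 transcriptional regulators, 9 transcripts of fatty acid activation and the carnitine shuttle, 16 of mitochondrial beta-oxidation and 13 of the peroxisome. All 42 were found in GENCODE M21 (GRCm38), which lists 21951 protein-coding genes. Each of 12 kidneys had its own list of m6A peaks from methylated RNA immunoprecipitation sequencing (MeRIP-seq), in which RNA fragments bound by an m6A antibody were sequenced. The kidneys came from male C57BL/6 mice, labelled C57, that were 8 weeks old when assigned to groups. They were taken 72 h after cisplatin or its vehicle. Control mice received vehicle only, the injury group (IG) received cisplatin once by vein at 20 mg/kg after vehicle injections, and the treatment group (TG) was given 20 mg/kg of berberine on each of the 14 days that led up to the same dose of cisplatin, with 4 kidneys per group. Cisplatin is a platinum drug that injures the renal tubule and gives acute kidney injury, and berberine is a plant alkaloid. The labels name no altered allele. The study's methods give 4 mice in each group, and the labels do not tie a kidney to a mouse. The lists held 5901 to 9579 peaks each, with fewer peaks in TG (mean 6380) and IG (mean 7422) than in controls (mean 8952).

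Mitochondrial beta-oxidation shortens fatty acyl-CoA in repeated cycles of dehydrogenation, hydration, oxidation and thiolysis, after the acyl group has been activated by a CoA ligase and carried across the inner membrane on carnitine. Peroxisomes import very long chain and branched acyl-CoA through ABCD transporters and shorten them by a separate set of enzymes. The proximal tubule relies on these pathways for its energy, and PPAR alpha with its partner RXR alpha and the PGC-1 coactivators drives the genes that encode them. m6A is written mostly on mRNA, often in long exons and near stop codons, and is read by proteins that alter stability, splicing and translation.

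Of the 42 transcripts, 20 (47.6%) had a peak on their own strand over an exon in at least 1 kidney, against 7774 of all 21951 genes (35.4%). Peaks seen in most kidneys were no more frequent in the pathway than elsewhere: 8 members (19.0%) had a peak in at least 6 of 12 kidneys, against 20.04% of all genes, and 2 members (4.76%) in all 12, against 8.60%. Of the members with any peak, 30% were listed in 1 kidney only, against 14.2% of genes with any peak. The 2 transcripts listed in every kidney encode the coactivators PGC-1 alpha (Ppargc1a) and PGC-1 beta (Ppargc1b). They were followed by Cpt2 and Hadha with 11 kidneys, Abcd3 with 8, and Hadh, Abcd2 and Hsd17b4 with 6. All 4 regulators had a peak in at least 1 kidney, as had 5 of 9 activation and shuttle transcripts, 6 of 16 transcripts of mitochondrial oxidation and 5 of 13 of the peroxisome.

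No peak was listed in any kidney for 22 transcripts (52.4%, against 64.6% of all genes), which included 10 of the 16 of mitochondrial beta-oxidation (62.5%). Among them were the acyl-CoA dehydrogenases of each chain length, Acads, Acadm, Acadl and Acadvl, with Acad10, the trifunctional protein's beta subunit Hadhb, the auxiliary enzyme Decr1, and the electron transfer flavoproteins Etfa and Etfb with their dehydrogenase Etfdh. In the activation group, the ligases Acsl4, Acsl5, Acsm2 and Acsm3 had none. In the peroxisome, the acyl-CoA oxidases Acox2 and Acox3, the thiolases Acaa1a and Acaa1b, the isomerase Eci2, the import factors Pex5 and Pex6 and catalase (Cat) had none. A list without a peak does not show that a transcript was unmethylated or absent, since the depth of each library was unknown here and the 12 input libraries were not analysed here. A listed peak does not measure expression, so marker genes could not check the tissue label and are given as description. Of 12 proximal tubule markers, 10 had no peak in any kidney, Lrp2 and Slc34a1 among them, where 64.6% of all genes had none. The other 2, Cubn and Slc22a6, were each listed in 1 TG kidney. Of 5 injured tubule markers, Havcr1 (KIM-1) was listed in 0 of 4 control, 4 of 4 IG and 3 of 4 TG kidneys, Vcam1 in 4, 3 and 3 with a lower rank in every IG than in every control kidney, and Lcn2, Krt20 and Spp1 in none. Adipocytes express the same pathway, and of 5 adipocyte markers 4 had a peak in some kidney, where 35.4% of all genes had. Adipoq was listed in 3 control, 2 IG and 3 TG kidneys, Lep in 3 IG kidneys alone and Cidec in none. Of the other markers, Podxl of the podocyte had a mean rank of 94.1 in controls, 19.9 in IG and 79.2 in TG. The mean ranks of Nphs1, of the same cell, were 10.6, 47.1 and 12.1, with a peak in 1, 4 and 2 kidneys. Endothelial Pecam1 had 90.1, 78.6 and 62.8, lower like Podxl in every IG than in every control kidney, and Slc12a1 of the thick limb was listed in 1 control, 4 IG and 0 TG kidneys. The study's own comparison of sites instead reported Slc12a1 as less methylated in IG than in control and more in TG than in IG. It also reported Krt20 sites as gained in IG. The reason for these conflicts was not tested. Of 5 immune markers Ptprc was listed in 1 control kidney and the others in none, and of 4 fibroblast markers Pdgfrb was listed in all 12 kidneys and the others in none. The part of these cell types in the results was not tested.

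**Figure D1:**
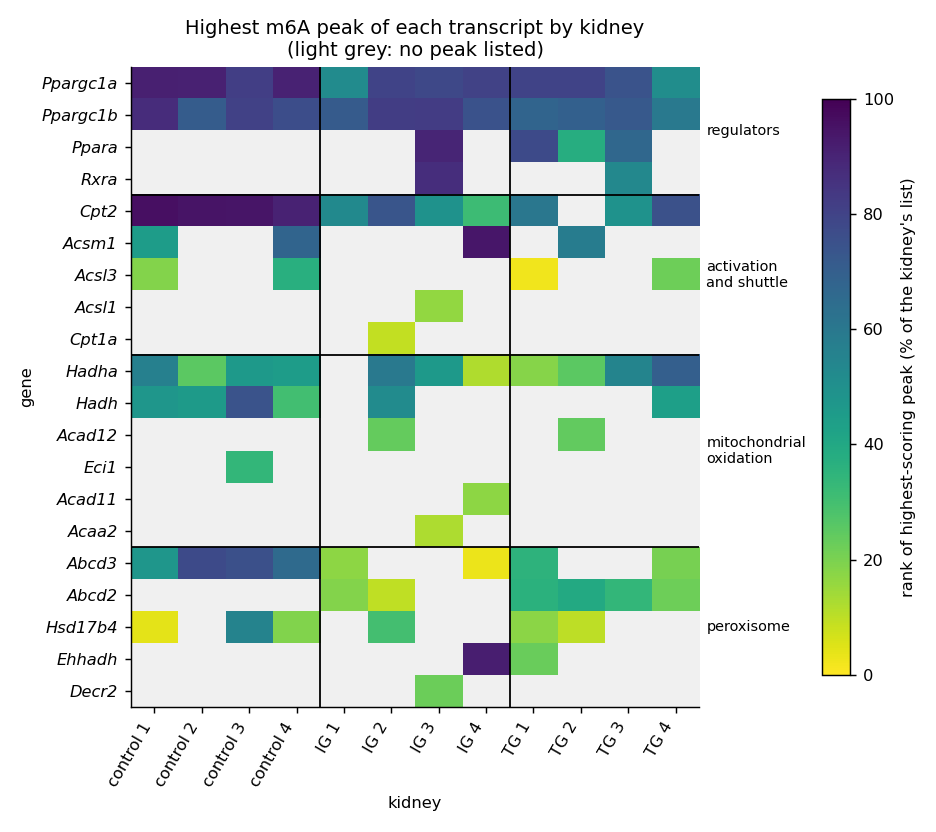
Rank of the highest-scoring m6A peak for the 20 transcripts with a peak (rows, grouped by role) in each of the 12 kidneys (columns), as the percent of the kidney's peak scores at or below it. Light grey marks kidneys with no listed peak; Cpt2 sits between 90.4 and 95.9 in the 4 controls and between 31.4 and 73.6 in the 4 IG kidneys.

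Sequences of 8 coding stretches are shown because they hold the peaks that differed between groups or recurred across kidneys. They are written 5′ to 3′ on the transcript's strand, from the RefSeq sequence of GRCm38, with capitals where GGAC is followed by T, by A or by C, and where GAACT stands or AGACT stands or AAACT stands, 6 forms of the sequence in which m6A is written. Those of Hadh, Cpt2 exon 2 and Ppargc1a exon 5 follow from a fixed rule, and the other 5 were chosen after their values were seen. All 8 lie on the minus strand, and each is coding sequence only.
Hadh exon 2, chr3:131249803-131249931: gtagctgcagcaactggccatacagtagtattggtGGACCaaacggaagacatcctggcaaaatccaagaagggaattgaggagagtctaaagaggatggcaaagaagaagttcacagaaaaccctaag
Cpt2 exon 2, chr4:107914264-107914344: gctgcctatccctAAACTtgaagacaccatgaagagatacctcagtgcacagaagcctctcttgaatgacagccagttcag
Cpt2 exon 5 up to the stop codon, chr4:107904235-107904474: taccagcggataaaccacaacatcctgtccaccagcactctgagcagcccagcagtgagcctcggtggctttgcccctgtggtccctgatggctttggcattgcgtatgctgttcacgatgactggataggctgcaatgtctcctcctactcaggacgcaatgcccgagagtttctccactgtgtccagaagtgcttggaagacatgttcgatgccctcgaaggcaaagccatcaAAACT
Ppargc1a exon 5, chr5:51494601-51494805: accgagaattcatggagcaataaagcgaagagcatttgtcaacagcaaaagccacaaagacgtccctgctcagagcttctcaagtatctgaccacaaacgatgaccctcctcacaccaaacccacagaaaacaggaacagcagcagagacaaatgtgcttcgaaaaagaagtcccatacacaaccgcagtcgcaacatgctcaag
Ppargc1a exon 4, chr5:51495670-51495795: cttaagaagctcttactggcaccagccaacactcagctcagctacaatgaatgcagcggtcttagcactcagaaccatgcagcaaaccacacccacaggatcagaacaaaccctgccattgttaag
Hadha exon 7, chr5:30140949-30141051: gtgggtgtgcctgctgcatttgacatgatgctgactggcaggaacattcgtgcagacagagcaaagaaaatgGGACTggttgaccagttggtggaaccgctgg
Abcd3 exon 21, chr3:121765001-121765105: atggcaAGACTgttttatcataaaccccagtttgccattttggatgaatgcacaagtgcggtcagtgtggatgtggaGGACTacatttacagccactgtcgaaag
Abcd2 exon 1 from the start codon, chr15:91191369-91191608: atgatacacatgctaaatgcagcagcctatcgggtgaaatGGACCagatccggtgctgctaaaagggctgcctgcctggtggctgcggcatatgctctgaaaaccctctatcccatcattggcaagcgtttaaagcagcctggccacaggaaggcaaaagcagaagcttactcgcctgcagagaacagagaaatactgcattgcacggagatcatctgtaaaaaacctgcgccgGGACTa

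Hadh and Hadha exons each held 1 of the 6 forms, GGACC and GGACT, and Abcd3 held AGACT and GGACT. Neither Ppargc1a exon held any of these 6 forms, and exon 5 was listed in all 12 kidneys. The 6 forms are only a part of RRACH, the wider sequence named by the study (R is A or G, H is A, C or T). Other forms of RRACH, such as AAACC and GAACA, stand in both Ppargc1a exons. In the central 150 bases of the 20 member loci long enough to scan, GGAC stood in 45% against 48.1% of 11924 such loci over all genes, and GGACT in 10% against 16.1%, on the gene's strand only. GGACA stood in 20% against 20.7%, GAACT in 20% against 17.1%, AGACT in 25% against 17.6%, AAACT in 20% against 15.6%, and GGACC in 0 of 20 against 16.5%. The scan counts each motif by itself, and GGAC overlaps the 3 forms that begin with it. A match is a description of the letters and does not mark a methylated base.

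Peaks that overlapped between kidneys were joined into loci, which gave 36 loci in the 20 members among 16801 in all. At 27 of the 36 loci (75%) every peak matched an annotated exon from end to end, against 59.9% of all loci, so the width of a peak here is mostly the width of its exon. Coding sequence alone held 22 loci (61.1% against 56.2%), 7 held the stop codon (19.4% against 25.3%) and 8 reached the 3′ UTR (22.2% against 27.4%). None was shared with another gene on the same strand, and no peak lay on the opposite strand. Of the 8 members with a peak in at least 6 kidneys, 4 had a longest coding stretch of 143 to 237 nt in 1 exon and 4 one of 916 to 1305 nt. The median was 238.5 nt in members with a peak in 1 to 5 kidneys and 201 nt in those without a peak. Over all genes the medians were 502 nt with a peak in at least 6 kidneys and 297 nt without a peak. The longest coding exons were those of Cpt2 (1305 nt), the bifunctional enzyme Ehhadh (1250 nt), Ppargc1b (1102 nt), the transporter Abcd2 (939 nt), Ppargc1a (916 nt) and Pex6 (885 nt). In Cpt2 that exon, exon 4 of 5, held no locus, and in Ehhadh and Pex6 a long exon went with 2 and 0 kidneys. Median 3′ UTR length was 1180 nt in the 20 members with a peak and 411 nt in the 22 without, and over all genes 1181 nt and 531 nt.

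**Figure D2:**
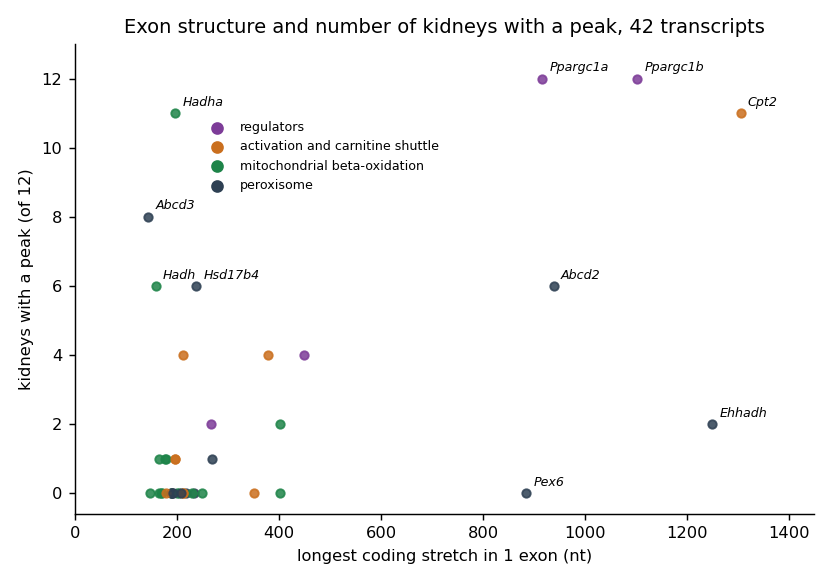
Longest coding stretch in 1 exon (x axis, nt, GENCODE M21) against the number of kidneys with a peak (y axis, of 12) for the 42 transcripts, coloured by role. Ppargc1a, Ppargc1b and Cpt2 lie at the upper right, whereas Hadha with 196 nt is at 11 kidneys and Pex6 with 885 nt is at 0.

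Controls had a peak in 9, 6, 8 and 9 members, IG kidneys in 5, 9, 9 and 8, and TG kidneys in 10, 8, 7 and 8. Means were 8 ± 1.41, 7.75 ± 1.89 and 8.25 ± 1.26 (SD, n = 4), which lie within 1 SD of each other, and over all genes they were 4966 ± 165, 4378 ± 245 and 3836 ± 231. In lists cut to equal length the means were 6.25 ± 0.957, 5.75 ± 1.26 and 8 ± 0.816 members, beside 3693 ± 43.9, 3681 ± 32.2 and 3610 ± 78.2 genes. No test of these differences was made. Counted against the length of the list, member peaks made up 1.17 to 2.00 of every 1000 peaks in controls, 1.26 to 1.92 in IG and 1.92 to 2.58 in TG. Counting a member once any kidney of the group listed it gave 10 members in controls (23.8%, against 29.4% of all genes), 18 in IG (42.9% against 27.9%) and 14 in TG (33.3% against 24.8%). Under 2 other settings, applied to these counts after the data were seen, they were 8, 13 and 14 in lists of equal length (against 22.5%, 23.9% and 23.5% of all genes) and 8, 9 and 7 with scores under the overall median left out (against 18.7%, 16.9% and 14.7%). A peak in all 4 kidneys was listed for 6 members in controls (14.3% against 16.2% of all genes), 3 in IG (7.14% against 12.8%) and 4 in TG (9.52% against 11.1%). Over all genes, any 2 of the 12 lists shared at most 62.0% of their joint loci.

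**Figure D3:**
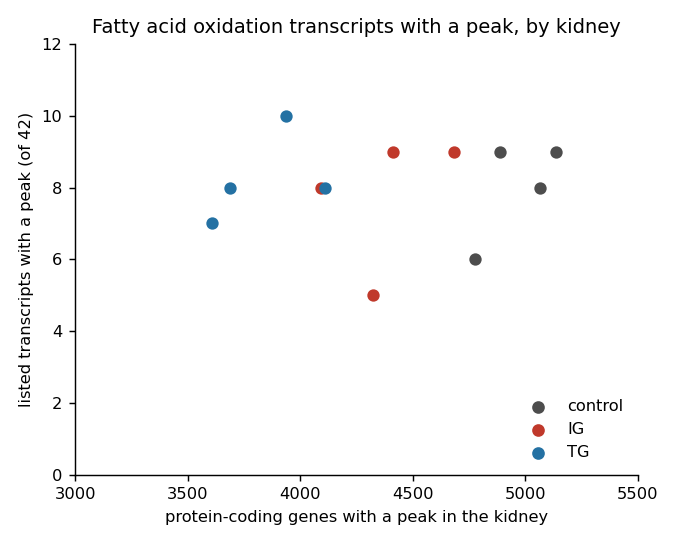
Number of the 42 transcripts with a peak (y axis) against the number of protein-coding genes with a peak (x axis) in each kidney, coloured by group. Counts of members stay between 5 and 10 in all groups, while all genes with a peak number 4775 to 5138 in controls and 3607 to 4111 in TG.

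For the comparison of IG with control (IvC), which asks what cisplatin changed, kidneys with a peak and the peak's rank were both compared. The rank is the percent of peak scores in the kidney's own list at or below the transcript's highest-scoring peak. It is 0 where none was listed, and was used because scores themselves rise with depth. It does not allow for the RNA level of a transcript, which was not analysed here. The part of RNA level in any difference of rank was not tested. The score is −10 times log10 of the peak caller's p-value. Of 20 members with a peak in either group, 1 (Hadh) had a peak in at least 3 fewer IG kidneys, where 8.98% of 7526 genes did, and 0 had a peak in at least 3 more, where 4.4% did. Ranks were lower in every IG kidney than in every control kidney for 3 members (15% of 20), against 11.5% of all genes, and higher for 0, against 5.49%. With lists cut to the length of the shortest, 2 of 14 members were lower, and the shares over all genes became 7.49% lower and 7.62% higher, and with scores under the overall median left out 2 of 11 were lower, against 10.9% of genes. The 3 were Cpt2, Abcd3 and Ppargc1a, and the one lost was Ppargc1a in lists of equal length and Abcd3 above the median score. In the full lists each had the smallest p that 70 arrangements of 4 against 4 kidneys allow (two-sided exact permutation test, p = 0.0286). Ranks that do not overlap fix this p by themselves, here and below, so the p repeats that description and adds no support. No gene or locus passed after adjustment over all genes or loci in any comparison (Benjamini-Hochberg, lowest adjusted p = 0.168 for ranks and 0.564 for Fisher's exact test in IvC). Without adjustment, 1279 of 7526 genes were under 0.05 by rank and 381 by Fisher's exact test, of which 3 and 0 were members.

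Cpt2 encodes carnitine palmitoyltransferase II, which returns acyl groups from carnitine to CoA inside the mitochondrion. Its main peak was the whole last exon, exon 5, which holds the stop codon. The score there was 1222, 953.8, 929.4 and 635.5 in the 4 control kidneys, 79.05, 201.2, 66.79 and 35.25 in the IG kidneys, and 101, 0, 64.35 and 222.4 in the TG kidneys. Every control score lay above every score after cisplatin, with or without berberine. The mean rank was 93.8 ± 2.38 in controls and 51.6 ± 17.3 in IG (SD, n = 4; exact permutation p = 0.0286, adjusted over all genes 0.168), a difference of −42.2 percentage points where the median gene differed by −3.23. TG had a mean of 46.2 ± 32.6, with no peak in 1 of 4 kidneys, and differed from IG by −5.40 (exact permutation p = 0.857), a sign that turned in lists of equal length (4.53) and above the median score (4.32). Cpt2 had a second peak over the 81 bases of exon 2, printed above, in 3 control kidneys, with scores of 38.98, 13.57 and 15.16, and in no IG or TG kidney (two-sided Fisher's exact test, p = 0.143, adjusted p = 1 over all loci). Its upstream partner Cpt1a, the rate-limiting step of entry, had a peak in 1 IG kidney only, at rank 9.03.

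Abcd3 encodes PMP70, the most abundant ATP-binding cassette transporter of the peroxisome membrane. Its peak over exon 21 of 23, the 105 bases printed above, was listed in 4 control, 2 IG and 2 TG kidneys. Scores were 65.65, 237.8, 216.8 and 142 in controls, 23.13, 0, 0 and 14.26 in IG, and 40.52, 0, 0 and 26.23 in TG. Controls did not overlap with either exposed group. The mean rank was 66.5 ± 13.8 in controls and 4.99 ± 8.19 in IG (SD, n = 4), a difference of −61.5 (exact permutation p = 0.0286, adjusted 0.168). TG was at 14.04 ± 17.3 and could not be told from IG (exact permutation p = 0.429). When each list was cut to the length of the shortest, Abcd3 was listed in 4, 0 and 2 kidneys.

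Ppargc1a, the coactivator that raises mitochondrial biogenesis and fatty acid oxidation, held 6 loci along its transcript. Exon 5 of 13 was listed in all 12 kidneys with scores of 632.8, 601.5, 297.2 and 623.1 in controls, 77.15, 137.9, 247.7 and 290.6 in IG, and 265.2, 266.9, 193.3 and 77.64 in TG. The lowest control score lay just above the highest in IG. In the full lists, mean rank at exon 5 was 88.4 ± 4.55 in controls, 68.9 ± 13.1 in IG and 71.4 ± 13.8 in TG (SD, n = 4), with IG below control (exact permutation p = 0.0286, adjusted over all loci 0.228) and TG at 2.48 above IG (p = 0.8286). In lists of equal length, with all 12 cut to the shortest, the ranks of the gene overlapped, with means of 82.4 in controls and 65.7 in IG (exact permutation p = 0.0857, adjusted 0.393). The neighbouring exon 4 showed no such order, with a peak in 2 control, 3 IG and 4 TG kidneys. Exon 3 was listed in 2 TG kidneys alone, exon 8, the longest coding exon, in 3, 2 and 2 kidneys, and the last exon with the stop codon in 2, 4 and 3. At the level of loci, 3 of 33 tested in IvC were lower in every IG kidney (9.09% against 8.63% of 16061 loci) and 0 were higher (3.87%), and these were the Cpt2, Abcd3 and Ppargc1a exons just described. By number of kidneys, 2 of 33 loci, Hadh exon 2 and Cpt2 exon 2, were listed in at least 3 fewer IG kidneys, against 8.95% of loci, and 0 in at least 3 more, against 3.82%. All of these shares were close to those over all loci.

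**Figure D4:**
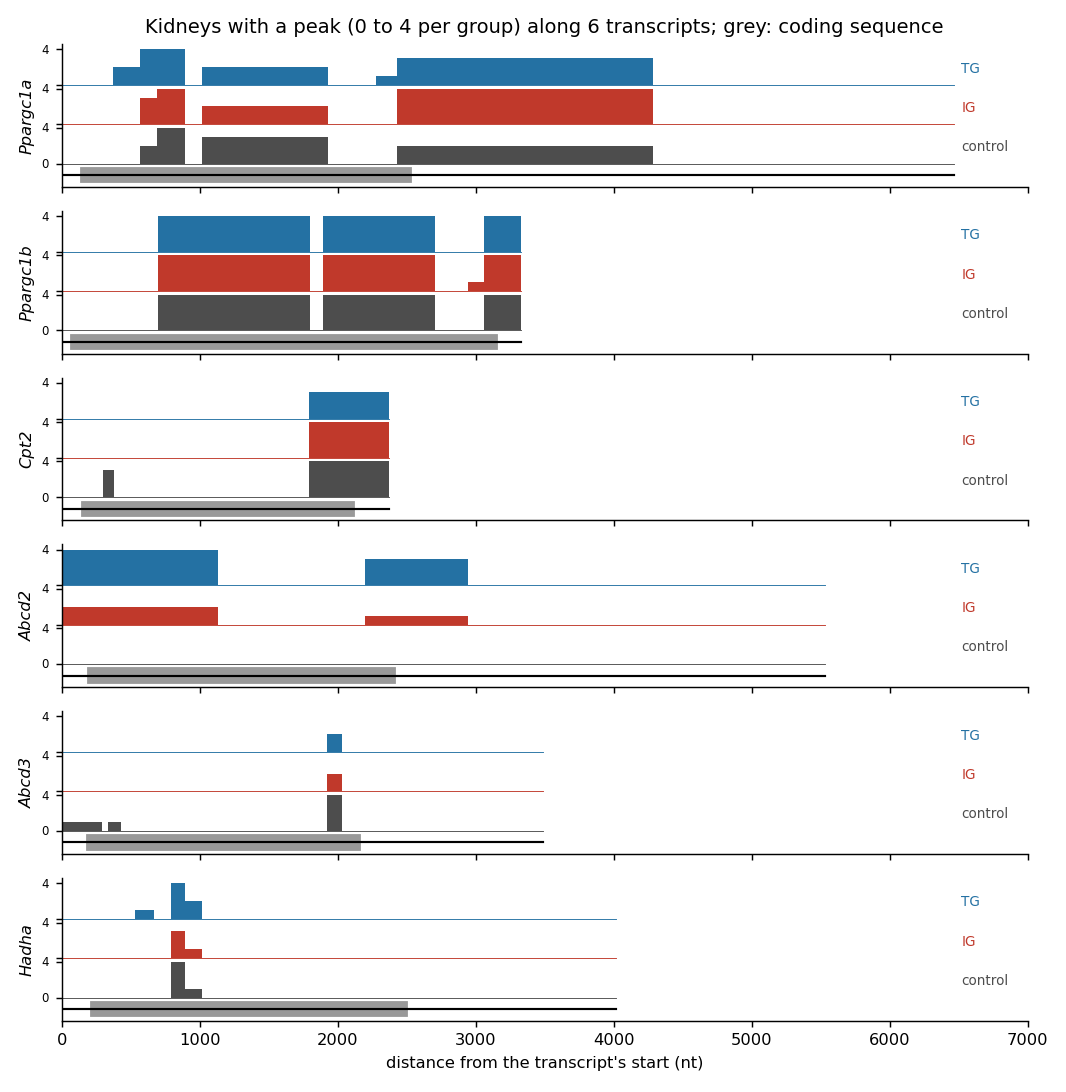
Number of kidneys with a peak (bar height, 0 to 4) along 6 transcripts, by group, against distance from the transcript's start in nt; the grey box is the coding sequence. Abcd2 carries no bar in controls and 4 kidneys at its first exon in TG, and Cpt2 exon 2 carries a bar in controls only.

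Hadh encodes the short-chain 3-hydroxyacyl-CoA dehydrogenase of the mitochondrial matrix, the oxidation step after hydration. It was the 1 member gene listed in at least 3 fewer IG kidneys, and its peak was the 129 bases of exon 2. Scores were 65.74, 61.85, 200.8 and 36.33 in controls, against 78 in 1 IG kidney and 58.18 in 1 TG kidney, with no peak in the other 3 of each group. The kidneys that kept it overlapped with the controls. Presence in 4 of 4 control and 1 of 4 IG kidneys gave p = 0.143 by Fisher's exact test (adjusted p = 1), and the rank difference of −36.5 gave p = 0.114 by exact permutation. Without IG kidney 1, 3 or 4, in lists cut to equal length (3 control, 1 IG) or with lower-scoring peaks under the overall median left out (1 control, 1 IG), Hadh did not reach that difference. The 2 latter settings left Abcd3 as the 1 member with at least 3 fewer IG kidneys.

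Hadha, the alpha subunit of the trifunctional protein, carries the hydratase and long-chain dehydrogenase steps. Its exon 7 of 20 was listed in 4 control, 3 IG and 4 TG kidneys. Scores were 94.08, 29.89, 62.46 and 62.36 in controls, 0, 106.5, 60.16 and 18.47 in IG, and 22.89, 28.23, 80.27 and 166 in TG. All 3 groups overlapped, and neither comparison passed (exact permutation p = 0.457 and 0.514). The remaining 4 mitochondrial members with a peak, Acad11, Acad12, Acaa2 and Eci1, were listed in 1 or 2 of 12 kidneys each.

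In all, 10 members had a peak in more IG than control kidneys (50% of 20, against 23.3% of genes), but 9 of the 10 rested on 1 IG kidney each. IG kidney 3 alone gave 5 of them, Ppara, Rxra, Acaa2, Decr2 and Acsl1, IG kidney 4 gave Ehhadh and Acad11, and IG kidney 2 gave Cpt1a and Acad12. Several of these single peaks were strong. Ppara, the fatty acid receptor of the pathway, had a score of 595.3 (rank 89.8) over its last exon in IG kidney 3, and Rxra, its partner, 458.3 (rank 87.1) in the 3′ UTR of the same kidney. Acsm1, a medium-chain CoA ligase that was not one of the 10, also had a strong peak, over exon 2 with the start codon. It reached 1074 in IG kidney 4 and was listed there, in 2 control kidneys and in 1 TG kidney. Ehhadh, named after its values were seen, reached 776.7 in IG kidney 4 and 26.77 in 1 TG kidney. No group difference can be read from such single kidneys, and 7 members had a peak in fewer IG than control kidneys (35% against 38.9% of genes) and 3 in as many. The median rank difference was 0.49 over the 20 members and −3.23 over all genes tested.

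The comparison of TG with IG (TvI) asks what berberine before cisplatin changed. Of 19 members with a peak in either group, 0 differed by at least 3 of 4 kidneys downward or upward, where 3.30% and 1.17% of 6666 genes did, and of 31 loci likewise 0, where 3.21% and 1.28% of 13357 did. Ranks were higher in every TG kidney for 1 member, Abcd2 (5.26% against 1.70% of genes), and lower for 0 (3.00% of genes). By locus, 1 of 31 was higher, Abcd2 exon 1 (3.23% against 1.32%), and 1 was lower, Ppargc1b exon 6 (3.23% against 2.26%). In lists of equal length, 1 of 15 members (Abcd2, 1 IG against 4 TG kidneys) was listed in at least 3 more TG kidneys, against 2.10% of genes, and 2 of 24 loci, against 2.30% of loci. Above the median score, 1 of 9 members ranked lower in every TG kidney, against 3.01% of genes, and 0 higher, against 1.43%. That member was Ppargc1b, with a difference of −21.4 (exact permutation p = 0.0286, adjusted 0.642), whereas in lists of equal length its groups overlapped, with a difference of −7.75 (exact permutation p = 0.143). No gene or locus passed after adjustment (lowest adjusted p = 0.608 for ranks of genes and 0.798 of loci, and 1 by Fisher's exact test). Without adjustment, 313 genes by rank and 51 by Fisher's exact test were under 0.05, of which 1 and 0 were members.

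Abcd2 encodes the adrenoleukodystrophy-related transporter, which brings very long chain and polyunsaturated acyl-CoA into the peroxisome. No control kidney listed a peak in it. The peak over exon 1, which holds the start codon, had scores of 24.26 and 17.83 in 2 IG kidneys and 41.87, 26.01, 31.66 and 27.55 in the 4 TG kidneys. The lowest TG kidney lay above the highest IG kidney. A second peak over the last exon, with the stop codon, was listed in 1 IG kidney at 16.73 and in 3 TG kidneys at 46.22, 37.54 and 26.47. Mean rank of the higher peak was 7.04 ± 8.88 in IG and 32.9 ± 7.46 in TG (SD, n = 4; exact permutation p = 0.0286, adjusted over all genes 0.608). All of these scores were low, and none reached the median of all lists, 71.3, so that no Abcd2 peak remained when scores under that value were left out. Among the 42, 2 ABCD transporters were listed in at least 6 kidneys, Abcd3 in 4 control against 2 TG kidneys and Abcd2 in 0 against 4. Abcd4, a relative outside the 42, was listed in 3 kidneys of each group.

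Ppargc1b, a second PGC-1 coactivator, was listed in all 12 kidneys at 3 exons, exons 6, 9 and 13. Its highest-scoring peak had a mean rank of 78.8 ± 6.90 in controls, 77.5 ± 5.41 in IG and 67.2 ± 5.30 in TG (SD, n = 4). Exon 6 had scores of 87.06, 171.5, 271.8 and 164.6 in controls, 179.4, 340.8, 316.1 and 214.7 in IG, and 130.9, 157.2, 70.69 and 22.1 in TG. Each TG kidney lay under each IG kidney, while controls overlapped with both. The rank of exon 6 was 77.5 ± 5.41 in IG and 50.8 ± 24.8 in TG (exact permutation p = 0.0286, adjusted over all loci 0.798), a p that the lack of overlap fixes by itself. At the level of the gene, the difference of −10.3 gave p = 0.0571 by exact permutation. Exon 13, with the stop codon, differed by 5.26 in the other direction (exact permutation p = 0.400).

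Ppara itself had a peak over its last exon, which runs into the 3′ UTR and past the annotated end of the gene, in 0 control, 1 IG and 3 TG kidneys. Scores were 595.3 in IG kidney 3 and 229.8, 43.5 and 131.5 in 3 TG kidneys. The 1 IG value was higher than all in TG, and the ranks overlapped (exact permutation p = 0.486). Among the other peroxisomal members, Hsd17b4, the D-bifunctional protein, had its most frequent peak over an exon of 25 bases in 3 control, 1 IG and 2 TG kidneys. In activation, Acsl3 had a peak in 2 control, 0 IG and 2 TG kidneys at ranks from 2.08 to 36.9, and Acsl1 in 1 IG kidney. In lists of equal length Acsl3 was listed in 1 TG kidney alone, and above the median score in 0 kidneys.

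**Figure D5:**
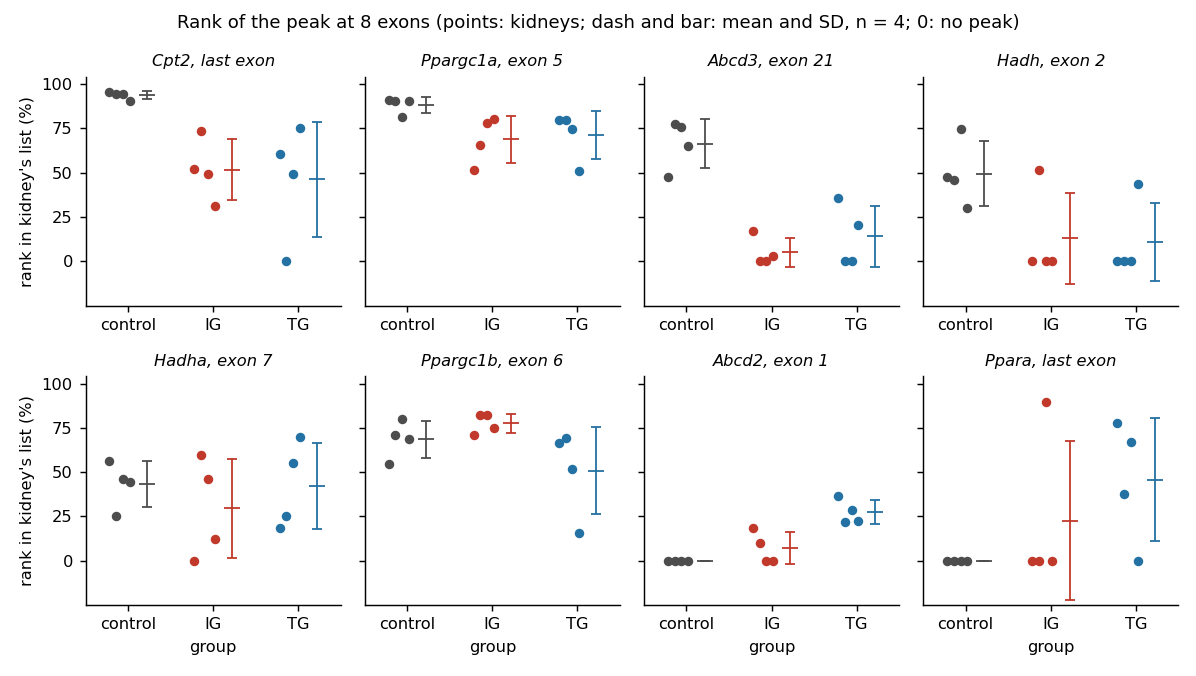
Rank of the peak in the kidney's list (y axis, percent, 0 for no peak) at 8 exons in control, IG and TG kidneys. Points are kidneys, and dashes with bars are mean and SD (n = 4). Controls lie above all IG kidneys at the last exon of Cpt2, at Ppargc1a exon 5 and at Abcd3 exon 21, and TG kidneys lie above all IG kidneys at Abcd2 exon 1.

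TG was also set against control (TvC), a comparison that was added after the data were seen and that shares the 4 control kidneys with IvC. Of 15 members with a peak in either group, 1 (Hadh) had a peak in at least 3 fewer TG kidneys, where 12.7% of 7242 genes did, and 2 (Abcd2 and Ppara) in at least 3 more, where 3.49% did. Ranks were lower in every TG kidney for Cpt2, Abcd3 and Ppargc1a, 3 members (20% against 15.8% of genes), and higher for 1, Abcd2 (6.67% against 4.09%). In lists of equal length, 1 of 14 members, Cpt2, ranked lower (7.57% of genes) and 1, Abcd2, higher (8.27%), while Abcd3 (exact permutation p = 0.0571) and Ppargc1a (exact permutation p = 0.143) overlapped. By kidneys with a peak, 0 members then differed by at least 3 downward (6.84% of genes) and 2 upward (6.69%). Above the median score the 3 of 10 that ranked lower were Cpt2, Ppargc1a and Ppargc1b, against 15.3% of genes. The rank in TG minus that in control was −47.6 for Cpt2, −52.5 for Abcd3, −17.1 for Ppargc1a, −38.5 for Hadh and 32.9 for Abcd2. The corresponding differences of IG from control were −42.2, −61.5, −15.9, −36.5 and 7.04. Abcd2, at 0 of 4 against 4 of 4 kidneys, had the smallest p that Fisher's exact test allows here (p = 0.0286, adjusted over all genes 0.486). The 4 rank differences without overlap had the smallest p by exact permutation (p = 0.0286, adjusted 0.144), which the lack of overlap fixes by itself.

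Other genes of the pathway, taken from 4 fixed lists none of them among the 42, are given by their counts, to be read against 35.4% of all genes with a peak and, of genes tested in IvC, 11.5% ranked lower and 5.49% higher. Every gene of these lists with a peak was tested in IvC, apart from Acot2, a further mitochondrial gene listed in 1 TG kidney alone. Of 14 carnitine shuttle and uptake genes, 1 had a peak in any kidney, and Slc25a20, Cpt1b, Cd36 and Fabp1 were among those without. Of 17 further mitochondrial genes, 7 had a peak, 4 ranked lower in every IG kidney and 0 higher. Of 34 peroxisome assembly and enzyme genes, 8 had a peak, 1 ranked lower (Pex3) and 0 higher. Of 25 PPAR factors and targets, 14 had a peak, 4 ranked lower and 0 higher. The 4 mitochondrial genes were Acadsb, Auh, Pccb and Acot13, and the 4 in the PPAR list were Ppard, Pprc1, Nrip1 and Ep300, of which Pprc1 overlapped in lists of equal length (exact permutation p = 0.114). In TvI, 0 genes of these lists ranked higher in every TG kidney, where 1.7% of all genes tested did. The mediator subunit Med1 was the 1 gene that ranked lower, where 3% did.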

How the data were processed

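MeRIP-seq was performed in 12 kidneys, 4 per group, with an m6A immunoprecipitation kit and a directional library kit, sequenced as paired reads of 150 bp. Per the labels and the study's methods, adaptors were trimmed with Cutadapt 1.9.3, reads were aligned with HISAT2 2.0.4 to mm10 (GRCm38), and peaks were called in each kidney with MACS, whose version, threshold and control were not given in the sources used here. The peak score deposited by the authors is −10 times log10 of the MACS p-value, and its lowest value of 13.02 corresponds to p just under 0.05. Read depth was unknown, and the 12 input libraries were not analysed here.

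A gene had a peak where 1 on its strand overlapped an exon of any transcript by at least 1 bp. A locus joined every peak, from any kidney, that shared 1 bp or more with another. Kidneys with a peak were compared by Fisher's exact test and ranks by an exact permutation test over 70 arrangements, both two-sided and adjusted by Benjamini-Hochberg over all genes or loci with a peak in either group (scipy 1.17.1 and numpy 2.4.6 in Python 3.11.15, sequences read with pysam 0.24.0, plots from matplotlib 3.10.9), after tests on simulated data. Named genes were those that differed by at least 3 of 4 kidneys and the 10 with the highest mean rank, with other members by counts, ranges or after their values were seen. Alternatives were equal list lengths, a minimum score, other exon, strand, overlap and joining rules, a replicate block and leaving out each kidney. The members and lists were chosen with earlier results of these data known.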

Additional observations from a re-analysis of the deposited data

Results flagged for a closer look

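In the 4 control kidneys, the score at Ppargc1a exon 5 was 632.8, 601.5, 297.2 and 623.1, and control kidney 3 lay far from the other three. The gap to its nearest neighbour was 0.907 of the whole range. This was 1 of 24 groups of 4 kidneys tested, and chance alone places about 1 in 20 past the limit used.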

How the results depend on the processing

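The smallest p of 4 against 4 kidneys, 0.0286, passes over all genes only where very many reach it, and without read depth a missing peak could not be told from a shallow library. Lists cut to equal length gave a mean of 6.25 members per control, 5.75 per IG and 8 per TG kidney, 2 members ranked lower in IG (Cpt2 and Abcd3), 1 locus listed in at least 3 fewer IG kidneys, and 1 gene (Abcd2) with 2 loci listed in at least 3 more TG kidneys. Scores at or above the median gave 4.75 members per control, 4 per IG and 4 per TG kidney, 1 locus with fewer IG kidneys, 2 members ranked lower in IG (Cpt2 and Ppargc1a), and in TG against IG 1 member ranked lower (Ppargc1b) and 0 higher. Under both settings the 1 gene with fewer IG kidneys was Abcd3 in place of Hadh. Asking for 4 of 4 against 0 of 4 kidneys left 0 genes and 0 loci with fewer IG kidneys, and the log2 score in place of the rank gave 1 member lower in TG than in IG.

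Leaving out each kidney in turn gave 0 to 2 genes and 1 to 3 loci with fewer IG kidneys, 0 to 1 genes and 0 to 1 loci with more TG kidneys, 3 to 4 members ranked lower in IG, and 0 to 1 ranked lower in TG. Genes with fewer IG kidneys were 0 without IG kidney 1, 3 or 4 and 2 without control kidney 2 or IG kidney 2, and such loci were 1 without control kidney 3 or 4 or IG kidney 1, 3 or 4 and 3 without IG kidney 2. The 1 gene with more TG kidneys appeared without IG kidney 3 or TG kidney 4, the 1 locus without IG kidney 1 or 3 or TG kidney 1 or 4, and the 1 member ranked lower in TG without IG kidney 1 or TG kidney 3. With the replicate block, 0 members ranked lower in IG and 0 higher in TG, since an exact sign-flip permutation over 4 pairs cannot go below p = 0.125, although 3 members were lower in all 4 pairs of IG and control. Replicate numbers did not pair the kidneys (correlations of deviations from −0.0214 to 0.0510), and the block changed no other count. Exon, strand, overlap, joining and annotation settings changed no count by over 1.5 times.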

Other observations

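Genes next to the 42 in the pathway, named after their values were seen, carried peaks that ranked lower after cisplatin. Acadsb, the short branched-chain acyl-CoA dehydrogenase of isoleucine breakdown, was listed in all 12 kidneys, with a mean rank of 83.5 in controls (78.0 to 89.6), 35.7 in IG (4.83 to 66.6) and 57.1 in TG (41.2 to 76.1). Auh, the hydratase of leucine breakdown, had mean ranks of 92.9, 60.4 and 57.2, and Pccb, the beta subunit of propionyl-CoA carboxylase, 87.3, 52.8 and 43.2. Acot13, a thioesterase of the mitochondrion, was listed in 4 of 4 control kidneys at ranks from 82.4 to 96.9 and in no IG or TG kidney. These 4 were named because no IG rank reached a control rank, which by itself fixes the exact permutation p at its smallest, so no test is given. In lists of equal length the ranks of IG and control still did not overlap, with means of 75.3 in controls and 25.7 in IG for Acadsb, 89.2 and 50.8 for Auh, 80.5 and 40.2 for Pccb, and 85.2 and 0 for Acot13. Ranks of TG and control then overlapped for Acadsb (67.5 to 83.2 in controls, 32.7 to 73.3 in TG) and not for Auh, Pccb or Acot13.

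Among nuclear receptor coregulators of the PPAR list, Ncor1, Crebbp, Ep300, Nrip1 and Med1 were listed in all 12 kidneys with mean ranks of 98.7, 98.2, 95.7, 93.4 and 79.4. Ppard was listed in 4 control, 1 IG and 1 TG kidneys, and Pprc1, the third member of the PGC-1 family, in 4, 2 and 0. Ddo, a peroxisomal oxidase of D-aspartate, was listed in 0 control, 3 IG and 3 TG kidneys, at ranks of up to 98 in IG and 94.5 in TG (exact permutation p = 0.143 for IG against control, adjusted 0.405).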
